A study of Mus musculus with 5 samples.

Results

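PEP1_Slc7a3.Sstr2 is 1 of 14 cell types that the authors annotated in lumbar dorsal root ganglion (DRG) cells, and its members were the cells carrying that label in the deposited annotation. They numbered 342 of 3352 cells in all, and 3047 of the 3352 were neurons of 12 types. The cells came from 5 untreated wild type C57BL/6 mice, 3 males and 2 females aged 18 weeks, so the comparisons here are between cell types and not between treatments. DRGs were dissociated with collagenase and trypsin, cleaned on a Percoll gradient and run on the droplet-based Chromium 3′ platform, which tags every captured transcript with a unique molecular identifier (UMI). The cell names carry 5 library identifiers, each taken as 1 mouse and called library 1 to library 5 here. Neither the sample label nor the sex behind a library was given, and none was inferred.

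DRG neurons carry touch, position, temperature, itch and pain signals to the spinal cord. Peptidergic nociceptors are pain-sensing neurons that store neuropeptides such as substance P and calcitonin gene-related peptide in dense granules and release them at both their central and peripheral endings. Many carry the heat and capsaicin channel Trpv1. Of the genes that mark the type, Tac1 encodes the precursor of substance P, Sstr2 encodes an inhibitory somatostatin receptor, and Slc7a3 encodes a carrier of arginine, lysine and ornithine.

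The type was found in every library, at 9.76%, 12.1%, 6.96%, 10.6% and 10.4% of the cells of libraries 1 to 5. Library 1 gave 16 of its 164 cells, with an exact 95% interval of 5.68% to 15.4%, and library 3 gave 33 of 474, with an interval of 4.84% to 9.64%. Among neurons alone the share was 11.3% ± 1.85 (SD, n = 5 libraries). Intervals cover counting error only, and the share after dissociation need not equal the share in the ganglion. The 342 cells held 13407111 UMIs, from 885440 in library 1 to 4619805 in library 5, so library 1 is the least precise. A cell held between 13723 and 115068 UMIs and a median of 6040 genes. Mitochondrial UMIs took a median of 3.89% to 5.57% by library, and 11 of the 342 cells were above 10%. Of 3345 distinct barcodes, 7 occurred in 2 or more libraries, and 1 cell of the type carried one of them.

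The type was made by clustering these counts, so its gene levels against other cells are a description and no p is given for them. UMIs were summed per library and cell type, levels are in CPM, the UMIs of a gene scaled to a total of 1000000 for the summed cells, and fold changes with standard errors (SE) are from edgeR. A gene was called higher or lower where the fold change was at least 2, the levels differed the same way in all 5 libraries, and at least 25% of the cells on the higher side held a UMI of it. By this rule 633 of 11834 genes, 5.35%, were called higher than in the other 11 neuron types together, and 830, 7.01%, were called lower. Without the minimum share of cells these counts were 891 and 1358. The other neurons are a sum in which NP_Mrgprd, with 900 cells, held 44.9% of the UMIs, so a gene that is high in NP_Mrgprd can be called lower without being low among the neuron types. Of the 830 genes, 204 had their lowest level of the 12 types in PEP1_Slc7a3.Sstr2 and 51 had one among the 6 highest.

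Of the marker genes, Sstr2 separated the type from every other neuron type, Slc7a3 was shared with PEP1_Dcn, and Tac1 was shared with the other PEP1 types and with PEP3_Trpm8. Sstr2 (chromosome 11, 113619327 to 113626028, plus strand, GRCm38) was at 72.3, 61.8, 75.3, 80.6 and 65.6 CPM in libraries 1 to 5. The next type, PEP1_S100a11.Tagln2, was at 3.25 to 6.31 CPM, and the libraries of the 2 types did not overlap. The mean was 71.1 ± 7.52 CPM against 0.448 ± 0.185 in the other neurons (SD, n = 5), a log2 fold change of 7.17 (SE 0.20).

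Slc7a3 (chromosome X, 101079146 to 101090452, minus strand, GRCm38) was at 48.6, 23.1, 67.8, 30.4 and 43.3 CPM in libraries 1 to 5, and at 2.05 ± 1.73 CPM in the other neurons. In PEP1_Dcn it was at 13.7, 23.8, 71.0, 17.4 and 20.1 CPM. The ranges of these 2 types overlapped, and PEP1_Slc7a3.Sstr2 was higher in 3 of 5 libraries. In PEP1_S100a11.Tagln2 the level was 0.198 ± 0.272 CPM, so Slc7a3 set the type apart from only 1 of the 2 other PEP1 types.

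Tac1 (chromosome 6, 7555061 to 7562978, plus strand, GRCm38) was at 5532, 4156, 6805, 6200 and 5418 CPM in libraries 1 to 5. PEP1_S100a11.Tagln2 was at 6434 ± 1579 CPM and was the higher of the 2 types in 4 of 5 libraries, with overlapping ranges. PEP3_Trpm8 was at 4981 ± 911 CPM and PEP1_Dcn at 3546 ± 1130 CPM. Against the other neurons together, at 777 ± 152 CPM, the log2 fold change was 2.86 (SE 0.16).

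**Figure D1:**
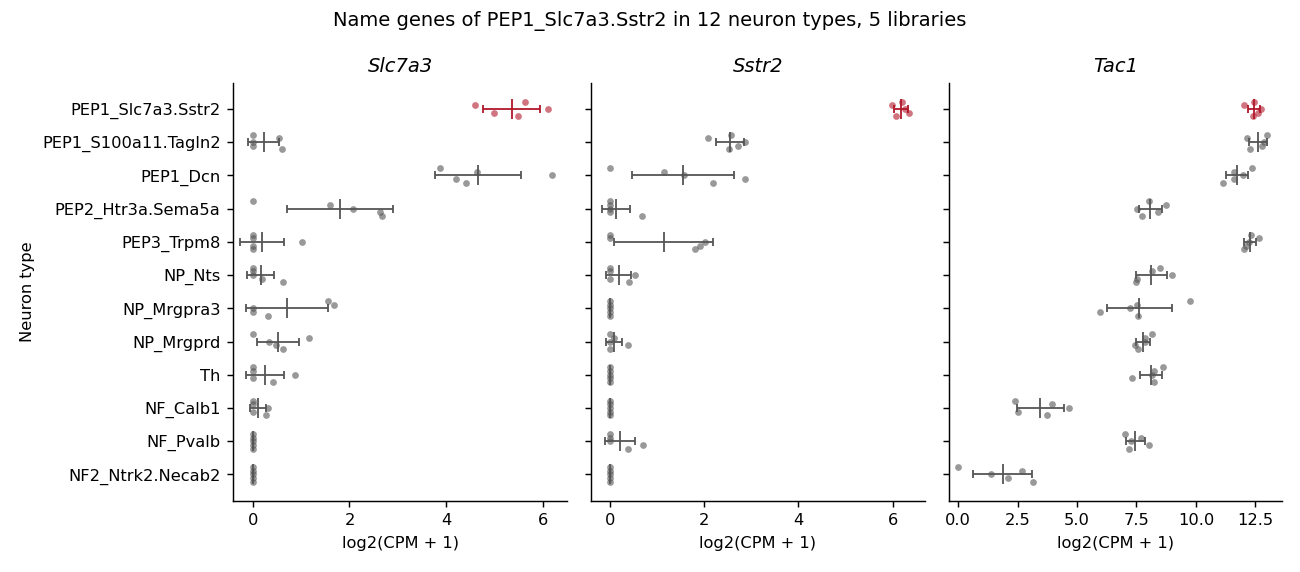
Levels of Slc7a3, Sstr2 and Tac1 as log2(CPM + 1) on the x axis in the 12 neuron types on the y axis. Points are the 5 libraries, the tick is their mean and the bar their SD; PEP1_Slc7a3.Sstr2, in red, stands apart for Sstr2, overlaps PEP1_Dcn for Slc7a3 and overlaps PEP1_S100a11.Tagln2 and PEP3_Trpm8 for Tac1.

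Within the type, Tac1 had a UMI in 342 of 342 cells, Sstr2 in 265 (77.5%, exact 95% interval 72.7% to 81.8%) and Slc7a3 in 144 (42.1%, interval 36.8% to 47.5%). Both Sstr2 and Slc7a3 were seen in 114 cells, Sstr2 alone in 151, Slc7a3 alone in 30, and 47 cells had a UMI of neither. The shares depend on depth. With each cell thinned to 10000 UMIs, which left out no cell of the type, they were 47.1% for Sstr2 and 24.9% for Slc7a3. Satellite glia, which should lack these genes and had a median of 17729 UMIs per cell against 38284 in the type, gave 0.803% for Slc7a3 at the same thinning. For Sstr2 they gave 0 of 249 cells, which allows a share of up to 1.20%. For Tac1 the glia gave 26.5%, which is read as background, while the type was at 100%. In PEP1_Dcn before thinning, 54 of 163 cells had Slc7a3 alone, 17 had Sstr2 alone and 4 had both. In PEP1_S100a11.Tagln2 these counts were 3, 31 and 0 of 181 cells. Across the 342 cells the correlation of Slc7a3 with Sstr2 was 0.07 and that of Tac1 with Calca 0.41, as descriptions of cells that share libraries and differ in depth.

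Promoter windows are shown for the marker genes and for Avpr1a, the gene with the largest fold change, so that the bases before the genes that are high together can be compared. They are from RefSeq on GRCm38.p6 and run from 250 bases before to 50 bases after the start site. Of the 4 genes looked up, 3 had a window, and Slc7a3 had none in the table. Capitals mark the cyclic AMP response element TGACGTCA and its core TGACG, searched on both strands, and the full element contains the core.
Sstr2, chr11:113619077-113619376, plus strand: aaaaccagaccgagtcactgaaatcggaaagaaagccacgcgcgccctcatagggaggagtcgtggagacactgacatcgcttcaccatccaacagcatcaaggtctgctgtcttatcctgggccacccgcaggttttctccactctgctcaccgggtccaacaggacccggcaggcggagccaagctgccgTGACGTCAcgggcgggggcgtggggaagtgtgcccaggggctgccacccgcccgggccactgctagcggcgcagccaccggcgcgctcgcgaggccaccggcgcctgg
Tac1, chr6:7554811-7555110, plus strand: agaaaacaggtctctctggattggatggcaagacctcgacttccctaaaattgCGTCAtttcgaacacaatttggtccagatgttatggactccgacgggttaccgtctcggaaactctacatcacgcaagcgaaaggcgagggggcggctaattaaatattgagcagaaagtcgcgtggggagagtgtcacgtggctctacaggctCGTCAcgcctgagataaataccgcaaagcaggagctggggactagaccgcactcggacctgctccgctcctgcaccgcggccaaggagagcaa
Avpr1a, chr10:122448249-122448548, plus strand: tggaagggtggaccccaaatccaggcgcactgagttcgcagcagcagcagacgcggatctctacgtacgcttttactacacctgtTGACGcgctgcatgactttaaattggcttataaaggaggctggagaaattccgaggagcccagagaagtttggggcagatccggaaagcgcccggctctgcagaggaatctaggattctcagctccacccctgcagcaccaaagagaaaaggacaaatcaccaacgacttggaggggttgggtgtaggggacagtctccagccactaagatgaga

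The full element TGACGTCA lay in the Sstr2 window, with its first base at -58 from the start site, and 1.79% of 32851 promoters in the table held it. The Tac1 window held the core on the minus strand at -197 and -43, and the Avpr1a window held it on the plus strand at -165. A core was in 20.8% of all promoters. These matches describe the letters of the windows and are not evidence of binding.

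Avpr1a, the vasopressin V1A receptor, was at 18.9 to 35.8 CPM in the 5 libraries of the type and at 0.129 ± 0.078 CPM in the other neurons. Its next type, PEP1_S100a11.Tagln2, was at 1.28 CPM, and the log2 fold change against the other neurons was 7.61 (SE 0.28). It was followed by Sstr2 and by Igfbpl1, with 13.7 ± 4.12 against 0.132 CPM. Pde1a, a calcium- and calmodulin-dependent phosphodiesterase that degrades cyclic nucleotides, was at 45.7 ± 20.7 against 0.911 CPM, and its libraries spread from 14.7 to 72.3 CPM. No UMI of Pde1a was found in the 181 cells of PEP1_S100a11.Tagln2, so it was at least 147-fold higher than there, taking 3 UMIs over the 5 libraries as the floor. Other genes among the 20 with the largest fold changes were Ntn5, of the netrin family (21.5 against 0.476 CPM), Dcdc2a, a doublecortin domain gene (57.9 against 1.27 CPM), and the potassium channel subunits Kcns2 (17.2 against 0.635 CPM) and Kcnh3 (11.9 against 0.475 CPM). Adh7, an alcohol dehydrogenase that also oxidises retinol, was at 17.8 against 0.824 CPM, and Car12, a membrane carbonic anhydrase, was at 15.8 against 0.747 CPM. Marcksl1, a regulator of the actin cytoskeleton, was at 214 ± 22.3 against 11.9 CPM, and Ndnf, a secreted neurotrophic factor, was at 14.8 against 0.802 CPM. Ly6e, at 59.2 CPM, was not far above PEP1_Dcn at 40.2 CPM. Some of these genes were also high outside neurons. Satellite glia had Marcksl1 at 640 CPM, Pde1a at 26.3, Ntn5 at 18.8 and Ndnf at 12.2 CPM, and endothelial cells had Ly6e at 1604.5 and Marcksl1 at 424 CPM.

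**Figure D2:**
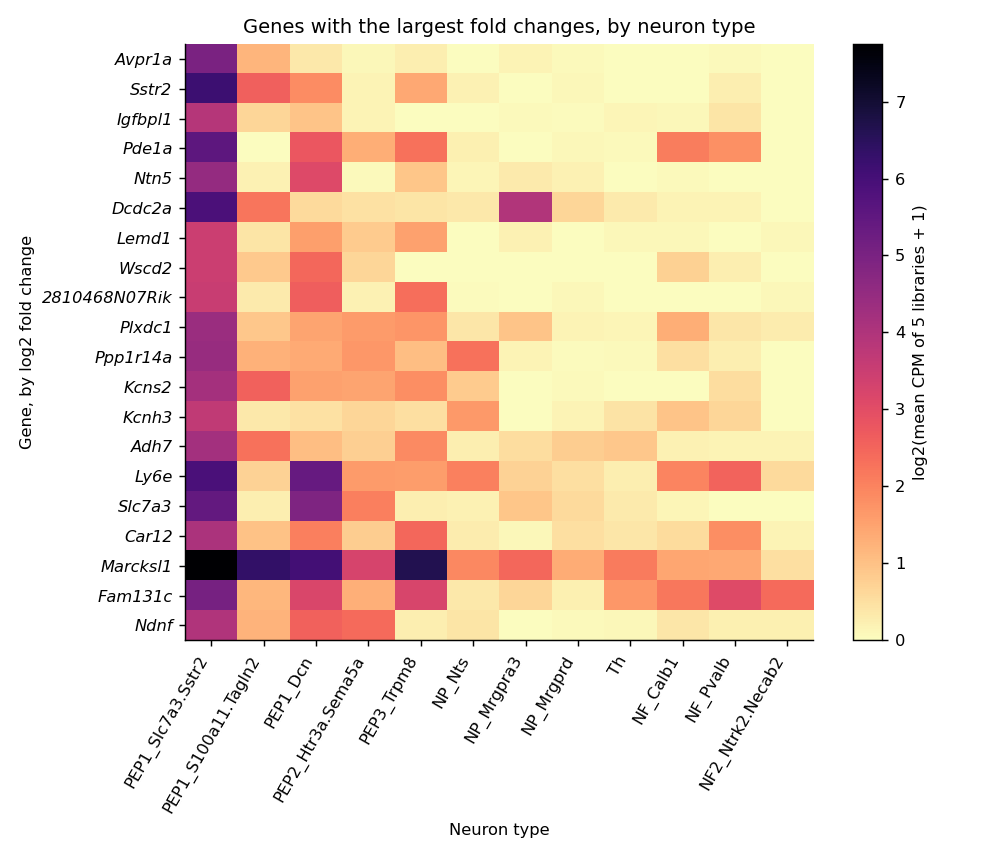
The 20 genes with the largest fold changes against the other neurons on the y axis, by neuron type on the x axis, coloured by log2(mean CPM of 5 libraries + 1). All 20 have their highest level among neurons in PEP1_Slc7a3.Sstr2, while Slc7a3 and Ly6e are nearly as high in PEP1_Dcn and Dcdc2a is also seen in NP_Mrgpra3.

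The genes called lower with the largest fold changes were nearly absent from the type. Trpc6, a calcium-permeable channel, had no UMI. Moxd1, Fat3 and Tox3 had 1 UMI each in the 342 cells, against 22.2, 19.1 and 18.2 CPM in the other neurons. Mrgprd, the receptor that marks nonpeptidergic NP_Mrgprd neurons, had 9 UMIs against 102 CPM.

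Of the 633 genes called higher, 308 had their highest level of the 12 neuron types here and 189 had the second highest. Only 40 were at least 2-fold above the next type. Of those 40, Ccl2, Nxn and Tgfb1 were named after their values were seen. Ccl2, a chemokine that attracts monocytes, was at 573 ± 156 CPM against 204.5 in PEP1_S100a11.Tagln2. Nxn, a redox protein of the thioredoxin family, was at 142 ± 12.3 CPM against 52.1 in NP_Mrgpra3. Tgfb1, a transforming growth factor, was at 47.0 ± 7.35 CPM against 18.7 in PEP1_Dcn. The type that followed most often among the 308 genes was PEP1_Dcn, for 82 genes, then PEP1_S100a11.Tagln2 for 72 and PEP3_Trpm8 for 45.

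**Figure D3:**
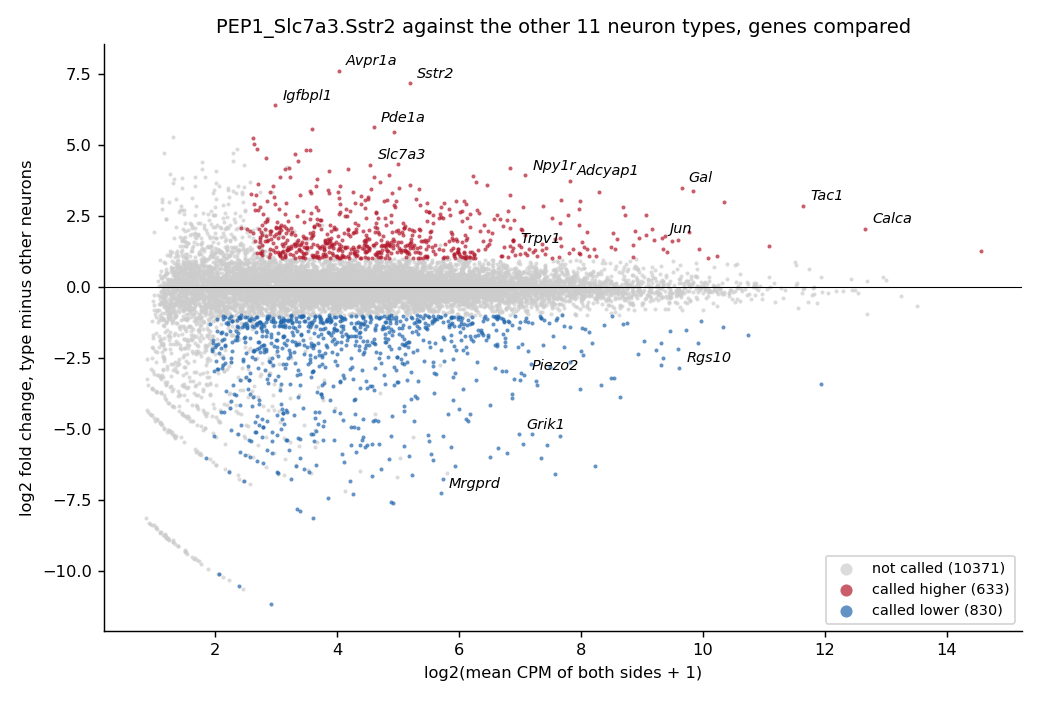
Log2 fold change of PEP1_Slc7a3.Sstr2 against the other neurons on the y axis and log2(mean CPM of both sides + 1) on the x axis for 11834 genes. Red points are the 633 genes called higher and blue points the 830 called lower; Avpr1a and Sstr2 have the largest positive values and Tac1 and Calca are high on both axes, while the streaks at the lower left are genes with 0 or few UMIs in the type.

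Over all genes compared, 5.35% were called higher and 7.01% lower, and the counts of each gene list stand beside these shares. Of 12 neuropeptide precursors compared, 5 were called higher and none lower. The 5 were Tac1, Calca, Adcyap1, Gal and Cartpt. Tac1 is a marker of the type, so its call is not independent of how the type was chosen. Adcyap1, the precursor of the peptide PACAP, was at 425, 396, 320.5, 515.5 and 432 CPM in libraries 1 to 5, against 25.7 to 36.9 in the other neurons. It was the only one of the 5 with its highest level here, and PEP1_Dcn followed at 317 ± 46.6 CPM with an overlapping range. Gal, the precursor of galanin, was at 1582, 1212, 1467, 1564 and 1547 CPM. All 5 libraries lay between those of PEP1_Dcn, at 2514 ± 730 CPM, and those of PEP1_S100a11.Tagln2, at 176 ± 49.1 CPM. Calca, which encodes calcitonin gene-related peptide, was at 10482 ± 1498 CPM, against 13435 ± 2504 in PEP1_S100a11.Tagln2, which was higher in every library. Cartpt, the precursor of the CART peptide, was at 719 ± 138 CPM and below PEP1_Dcn at 1373. Penk, the enkephalin precursor, was at 0.087 CPM and Sst, the precursor of somatostatin itself, at 0.940 CPM, both far below the types that carry them, PEP3_Trpm8 at 526 and NP_Nts at 1010 CPM.

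**Figure D4:**
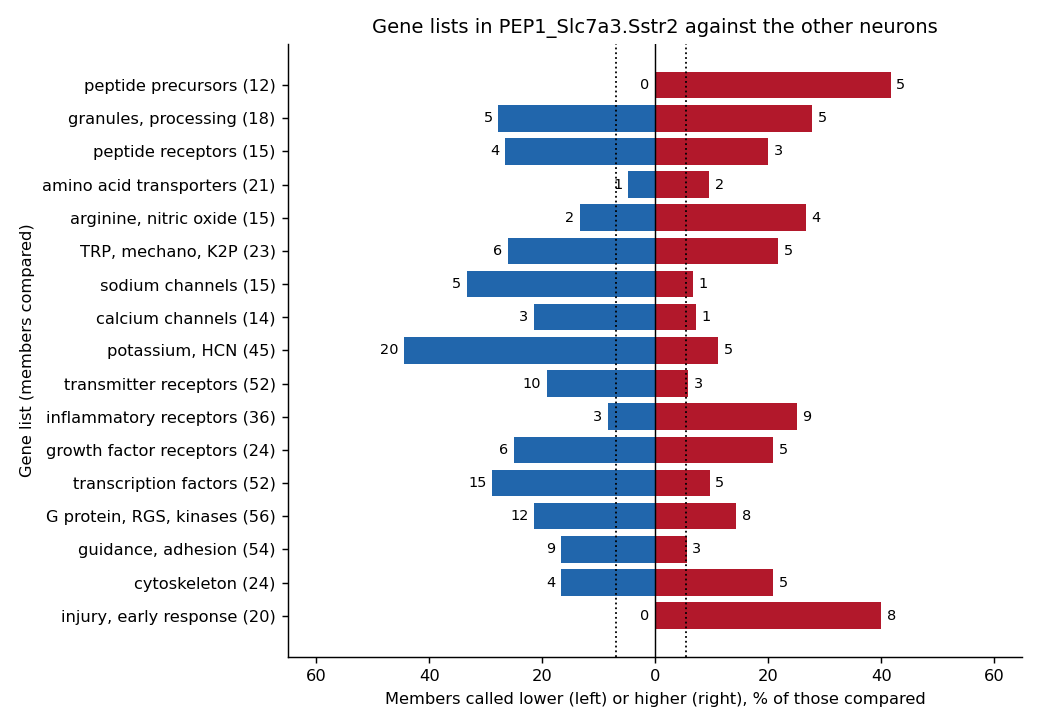
Share of the compared members of 17 gene lists on the y axis that were called higher (red, to the right) or lower (blue, to the left) in PEP1_Slc7a3.Sstr2 than in the other neurons, in percent on the x axis with counts at the bar ends. Dotted lines are the shares over all genes, 5.35% higher and 7.01% lower; peptide precursors and injury and early response genes had no member called lower, and potassium channels had 20 of 45. The markers Tac1, Sstr2 and Slc7a3 are counted in the lists of peptide precursors, peptide receptors and amino acid transporters.

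Genes of the peptide granule were split, with 5 of 18 called higher and 5 lower. Scg2, a granin of the granule core, was at 1165 ± 378 against 371 CPM in the other neurons, and Syt4, a synaptotagmin of dense granules, was at 1454 ± 96.8 against 713 CPM. Pam, which amidates peptides such as substance P, was at 164 ± 47.5 against 75.2 CPM. In the other direction, Scg3 was at 158 ± 15.6 against 815 CPM, and the processing enzymes Cpe (223 ± 27.3 against 822 CPM) and Pcsk2 (105 ± 32.6 against 213 CPM) were lower. For Scg3 and Cpe the type had the lowest level of the 12 neuron types, but PEP1_S100a11.Tagln2 was close, at 175 and 258 CPM. Of 17 granule genes compared, none was called lower than in either of the other PEP1 types. Scg2 was higher in PEP1_S100a11.Tagln2, at 1400 CPM, and Pam in PEP1_Dcn, at 268 CPM.

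Of 15 peptide receptors compared, 3 were called higher and 4 lower. The 3 included Sstr2, a marker of the type, whose call is not independent of how the type was chosen. Npy1r, a receptor for neuropeptide Y, was at 260, 265, 189, 288 and 265 CPM in libraries 1 to 5, against 13.2 to 21.2 in the other neurons, and PEP3_Trpm8 followed at 116.5 CPM. Ntsr2, a neurotensin receptor, was at 29.2 ± 6.27 CPM and PEP3_Trpm8 at 30.5 CPM. With Sstr2, these were also called higher than in each of the other PEP1 types. The receptors called lower were Agtr1a (0.514 against 32.0 CPM), Prokr1, Cckar and Npy2r (5.13 against 30.5 CPM). Agtr1a was at 76.4 CPM in NP_Mrgprd and Npy2r at 284 CPM in NP_Nts, and the type was in the middle of the 12 for both. The opioid receptors were not called, with Oprm1 at 4.04 CPM, Oprk1 at 1.26 CPM and Oprd1 without a UMI.

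Among 21 amino acid transporters, Slc7a3 and the neutral amino acid carrier Slc1a5 (12.7 ± 2.01 against 3.10 CPM) were called higher. Slc7a3 is a marker of the type, so its call is not independent of how the type was chosen. That leaves only Slc1a5. Slc1a5 was also at 112 CPM in satellite glia. The glutamine carrier Slc38a1 (5.46 against 26.2 CPM) was the only 1 called lower, where 7.01% of all genes were. Slc7a1, a related cationic carrier, was at 25.6 CPM and was called lower than in PEP1_Dcn, at 77.2 CPM, but not than in the other neurons together. Of 15 genes of arginine and nitric oxide, 4 were called higher and 2 lower. The 4 were Asl, which makes arginine (93.3 ± 26.7 against 43.1 CPM), Odc1, which uses ornithine for polyamines (141 ± 14.6 against 66.0 CPM), Ddah2, which breaks down inhibitors of nitric oxide synthase (88.2 ± 7.08 against 16.5 CPM), and Prkg2, a kinase driven by cyclic GMP (27.6 ± 5.92 against 6.73 CPM). Among neurons, Prkg2 was also at 25.7 CPM in NF_Pvalb, Odc1 at 120 CPM in PEP1_Dcn and Asl at 77.6 CPM in NP_Mrgpra3. Odc1 was also at 311 CPM in satellite glia and 279 CPM in endothelial cells, and Ddah2 at 109 CPM in satellite glia. Ddah1 and Nos1ap were the 2 called lower. Nos1, the neuronal nitric oxide synthase, was at 8.20 to 23.4 CPM in the type and at 108 to 513.5 CPM in PEP1_Dcn, with no overlap.

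Among 23 TRP, mechanosensitive and 2-pore potassium channels, 5 were called higher and 6 lower. Trpv1 was at 135.5, 206, 185, 163.5 and 157 CPM in libraries 1 to 5, against 48.5 to 82.4 in the other neurons. It had the fifth highest level of the 12 types, and PEP1_Dcn, at 360 to 537 CPM, and PEP1_S100a11.Tagln2, at 219 to 358 CPM, were above it in every library without overlap. Trpa1, a channel for irritants, was at 29.0 ± 13.8 CPM and was called lower than in PEP1_Dcn, at 124 ± 65.03 CPM, although the libraries of the 2 types overlapped. The 2-pore potassium channels Kcnk2 (110 ± 15.7 against 17.5 CPM), Kcnk10 (13.8 against 2.66 CPM) and Kcnk4 (17.9 against 4.56 CPM), all sensitive to heat and stretch, were among those called higher, as was the heat-gated Trpm3 (13.01 against 4.80 CPM). Only Kcnk10 had its highest level of the 12 types here. PEP1_Dcn was above the type for Kcnk2 (196 CPM), Kcnk4 (19.4 CPM) and Trpm3 (15.5 CPM), and PEP3_Trpm8 for Kcnk2 (139 CPM). Trpc6 had no UMI in the type and 13.1 CPM in the other neurons, which makes it at least 58.7-fold lower. Piezo2, the main mechanosensor of touch, was at 29.4 ± 10.1 against 237 ± 29.1 CPM. Trpm8, the cold channel that names PEP3_Trpm8, was at 1.03 CPM in the type and 44.0 in that type.

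Of 45 potassium and HCN channel genes, 5 were called higher and 20 lower, and the median log2 fold change of the list was -1.01, against -0.04 over all genes compared. Kcns2 and Kcnh3, named above, are not in this list. Kcna1 was at 6.59 ± 4.92 against 285 ± 119 CPM, the channel partner Kcnip2 at 1.18 against 90.2 CPM, and Kcnip4 at 25.3 ± 5.77 against 284 CPM. Those called higher included Kcnk3, an acid-sensitive leak channel (135 ± 33.1 against 20.3 CPM), and Kcnc4 (136 ± 32.8 against 44.2 CPM). Kcnk3 was higher still in PEP1_Dcn, at 264 CPM, and Kcnc4 in NF2_Ntrk2.Necab2, at 236 CPM. The list differed less from the other PEP1 types. Against PEP1_S100a11.Tagln2, 8 of 33 were called higher and 4 lower (3.81% and 3.51% of all genes), with a median of 0.01. Against PEP1_Dcn, 5 of 33 were called higher and 7 lower (2.86% and 4.76% of all genes), with a median of -0.22. Of 15 sodium channel genes, 1 was called higher than in the other neurons, Scn3a (14.4 against 5.58 CPM), near the 5.35% of all genes. The 5 called lower included Scn8a (2.05 against 86.1 CPM), Scn1a (0.983 against 34.4 CPM) and Scn4b (0.152 against 21.1 CPM). Each of these had its highest level in an NF type. Scn8a was also at 44.1 CPM in Th, and Scn1a at 36.1 CPM in PEP3_Trpm8 and 31.6 CPM in Th. The nociceptor channels Scn9a (184 CPM), Scn10a (130 CPM) and Scn11a (134 CPM) were not called. Of 14 calcium channel genes, 1 was called higher, near the 5.35% of all genes. It was Cacna2d1 (288 ± 24.6 against 90.0 CPM), the target of gabapentin, and its level was the highest of the 12 types. The 3 called lower were Cacna2d3, Cacng2 and Cacnb4.

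Of 52 transmitter receptors compared, 3 were called higher, near the 5.35% of all genes, and 10 lower. Chrnb3, a nicotinic receptor subunit (39.3 ± 12.8 against 4.39 CPM), and the glutamate receptor subunits Gria1 (49.7 against 12.5 CPM) and Grin3a (59.9 against 15.3 CPM) were higher, and all 3 were higher still in PEP1_Dcn. The purinergic receptor P2ry1 had 4 UMIs in the 342 cells against 58.3 CPM in the other neurons. The kainate receptor Grik1 was at 7.18 ± 2.89 against 243 ± 33.1 CPM, and the ATP-gated channel P2rx3 at 46.8 ± 12.95 against 166 CPM.

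Of 36 receptors for inflammatory signals compared, 9 were called higher and 3 lower, the 3 near the 7.01% of all genes. The median log2 fold change of the list was 0.08. Il17ra, the receptor for interleukin 17, was at 27.9 ± 4.09 against 2.66 CPM and was at least 2-fold above every other neuron type. Outside neurons it was at 32.6 CPM in endothelial cells and 20.5 CPM in satellite glia. S1pr3, a receptor for sphingosine 1-phosphate, was at 138 ± 29.5 against 31.0 CPM. It was at 107 CPM in NF2_Ntrk2.Necab2, 105 CPM in PEP2_Htr3a.Sema5a and 343 CPM in satellite glia. Ptger4, a receptor for prostaglandin E2, was at 54.7 ± 4.91 against 12.4 CPM, and NP_Nts followed at 28.3. Il13ra1 (23.5 against 5.53 CPM) and Il4ra (71.7 against 19.0 CPM), which form a shared receptor for interleukins 4 and 13, also had their highest levels among the neuron types here, while Il13ra1 was at 31.5 CPM in endothelial cells. Those called lower were Lpar3 (4.63 against 134.5 CPM), Osmr (7.33 against 42.2 CPM) and Ifngr2 (37.2 against 77.5 CPM). Lpar3 was at 312 CPM in NP_Mrgprd and Osmr at 336 CPM in NP_Nts, and the type was in the middle of the 12 for both, while for Ifngr2 it had the lowest level.

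Of 24 growth factor receptors compared, 5 were called higher and 6 lower. Gfra3, the artemin receptor, was at 318 to 479 CPM in the 5 libraries against 50.5 to 88.9 in the other neurons. It was shared with PEP1_S100a11.Tagln2 at 496 ± 150 CPM, PEP1_Dcn at 385.5 and PEP3_Trpm8 at 259 CPM. Kit, the stem cell factor receptor, was at 97.9 ± 18.0 against 14.6 CPM, close to PEP2_Htr3a.Sema5a at 94.5. The receptors called lower were Gfra2 (0.770 against 104 CPM), Ntrk2 (1.55 against 39.3 CPM), Ntrk3 (3.32 against 63.3 CPM), Gfra1, Sorl1 and Fgfr1. Fgfr1 was nevertheless called higher than in PEP1_S100a11.Tagln2. Ret, the shared signalling partner of the Gfra proteins, was at 143 CPM and was not called.

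Of 52 transcription factors of sensory neurons, 5 were called higher and 15 lower. Bcl11a was at 41.8, 50.1, 59.6, 51.1 and 59.1 CPM in libraries 1 to 5, against 2.13 to 5.12 in the other neurons, and PEP2_Htr3a.Sema5a followed at 18.5 CPM. Klf6 (376 ± 79.5 against 65.01 CPM) and Pou4f3 (11.1 ± 2.81 against 1.37 CPM) also had their highest neuronal level here. Outside neurons Klf6 was at 476 CPM in satellite glia and 478.5 CPM in endothelial cells. Bcl11b was at 48.5 ± 7.27 CPM, second to PEP2_Htr3a.Sema5a at 62.8, and Hoxd1 was at 41.2 CPM, below 3 types. Those called lower included Pou4f2, without a UMI, Casz1 (1.15 against 91.9 CPM), Onecut2 (2.05 against 102.9 CPM), Etv1 (2.16 against 72.5 CPM) and Isl2 (79.5 against 339 CPM). Runx1, which directs nociceptor fate, was at 173 CPM and was not called.

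The list of G protein, RGS and kinase genes had 8 of 56 called higher and 12 lower. Rgs20 (37.4 ± 6.42 against 4.59 CPM), Rgs9 (20.5 against 3.24 CPM) and Adcy3, an adenylyl cyclase (32.5 against 8.31 CPM), joined Pde1a among the higher genes. Rgs9 was higher still in PEP1_Dcn, at 28.4 CPM, and Adcy3 was at 29.0 CPM in PEP2_Htr3a.Sema5a. The regulators Rgs10 (192.5 ± 9.65 against 1373 ± 210 CPM) and Rgs4 (211 ± 26.3 against 996.5 ± 128 CPM) were lower. So were the protein kinase C genes Prkca (23.0 against 231 CPM) and Prkcq, with 4 UMIs in the type (0.209 against 57.3 CPM). Prkcq was at 135 CPM in NP_Mrgprd, and the type ranked 9 of the 12 for it. Guidance and adhesion genes had 3 of 54 called higher, Unc5b, Unc5d and Tenm4, near the 5.35% of all genes. The 9 called lower included Nrp1 (14.1 against 79.6 CPM), Nrp2 (3.58 against 31.7 CPM) and Cntn1 (5.27 against 259 CPM). In the cytoskeleton list of 24, Stmn4 (205 ± 35.7 against 22.1 CPM), Stmn1, Vim, S100a11 and Gap43 were called higher. The neurofilament genes Nefh (163.5 ± 18.3 against 1101 CPM), Nefm and Nefl and the calcium-binding S100b (48.1 against 751 CPM) were lower. Prph, the filament of small neurons, was at 3964 CPM and was not called. Of 5 genes of transmitter synthesis and vesicular transport compared, none was called, and the vesicular glutamate transporter Slc17a6 was at 175 CPM.

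Of 20 injury and early response genes, 8 were called higher and none lower, with a median log2 fold change of 0.90. Jun was at 911, 768, 1239, 987 and 1041 CPM in libraries 1 to 5, against 247 to 387 in the other neurons, and its level was the highest of the neuron types. Atf3, a transcription factor induced by nerve injury, was at 336 ± 44.6 against 132.5 ± 21.4 CPM, behind NP_Nts and PEP3_Trpm8. Fosb was at 145 ± 33.7 against 39.2 CPM, Egr1 at 102 ± 24.4 against 50.6 CPM, and Csf1, a macrophage growth factor, at 35.6 ± 6.40 against 4.59 CPM. Fos, at 458 CPM, was not called. The 8 included Gal, which is also among the neuropeptide precursors. Fewer were called against the other PEP1 types. Csf1 and Gal, 2 of 16, were higher than in PEP1_S100a11.Tagln2, where 3.81% of all genes were. Jun, Dusp1 and Flrt3, 3 of 16, were higher than in PEP1_Dcn, where 2.86% were. Gadd45a was called lower than in both, at 58.2 ± 19.3 CPM against 128.5 and 134.5 CPM. Jun, Atf3, Fosb and Egr1 were also seen in satellite glia, with Jun at 1211 CPM. Mitochondrial UMIs, measured beside these genes, were at 4.43% ± 0.70 in the type and 4.79% ± 0.43 in the other neurons, and their part in these levels was not tested.

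Markers of other cell types were mostly low, in the sums of each list over the 5 libraries. The 10 satellite glia markers summed to 353 to 580 CPM, against 436 to 655 in the other neurons and 98212 to 123624 in the glia, and Sox10 had no UMI. The 13 markers of NP neurons summed to 217 to 267 CPM against 2753 to 2994 in NP_Mrgprd, and 8 of the 10 compared were called lower. The 12 NF markers summed to 242 to 373 CPM against 10457 to 14244 in NF_Pvalb, the 9 itch markers to 131 to 207 CPM against 5453 to 6672 in NP_Nts, the 8 Th markers to 23.5 to 55.9 CPM, and the 5 Trpm8 markers to 0.651 to 5.96 CPM. Endothelial markers summed to 77.5 to 113 CPM, above the other neurons at 42.3 to 63.7 and far below endothelial cells at 9535 to 13331. Most of that sum was Egfl7, with 1299 UMIs in 94.7% of the cells, while Tie1 had none and Pecam1 had 3. Schwann cell markers summed to 361 to 417.5 CPM, against 505 to 647 in the other neurons, without a UMI of Prx, Cldn19 or Mag. Most of that sum was Pmp22, at 352 CPM with a UMI in 98.8% of the cells. Mbp was at 34.8 CPM with a UMI in 71.35% of the cells. Mbp was called higher than in each of the other PEP1 types, and Pmp22 higher than in PEP1_S100a11.Tagln2. No Schwann cell type was annotated to set beside these levels. Fibroblast markers reached at most 2.17 CPM, without Col1a1 or Col3a1, and macrophage markers 8.61 CPM, without C1qc.

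Against PEP1_S100a11.Tagln2, the nearest type by its expression profile, 355 of 9322 genes, 3.81%, were called higher and 327, 3.51%, lower. Slc7a3 had a log2 fold change of 6.80 (SE 0.51) and Gpr26 no UMI in PEP1_S100a11.Tagln2, which makes it at least 33.2-fold higher in PEP1_Slc7a3.Sstr2. Ntn5, Ly6e, Lemd1, Adcy7 and Ifitm1 were among the 8 with the largest values, and Ifitm1 belongs to a family of similar genes between which reads may be split. Gal was higher by 3.05 on the log2 scale (SE 0.18) and the leak channel Kcnk3 by 4.24 (SE 0.25). In the other direction, Lef1, a transcription factor of the Wnt pathway, had 3 UMIs in 342 cells against 249 in 181 cells of the other type. Etv1 was at 2.16 ± 1.90 against 79.0 ± 15.3 CPM, Tmem233 at 6.17 ± 3.75 against 186 ± 25.04 CPM and Cldn9 at 1.32 against 47.4 CPM. Tagln2, which names that type, had a log2 fold change of -1.96 (SE 0.14).

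Against PEP1_Dcn, 265 of 9274 genes, 2.86%, were called higher and 441, 4.76%, lower. Dcdc2a was at 57.9 ± 16.6 against 0.493 ± 1.10 CPM, and Sstr2 and Avpr1a had log2 fold changes of 4.55 (SE 0.27) and 5.90 (SE 0.42). Ptprt, a receptor phosphatase, was at 187 ± 48.3 against 8.22 ± 5.34 CPM, with a UMI in 98.3% against 17.2% of the cells. The nicotinic receptor subunits Chrna3 and Chrnb4 had 3 and 4 UMIs in 342 cells against 878 and 698 UMIs in 163 cells of PEP1_Dcn. Tnfaip8 had no UMI and was at least 83.3-fold lower. Mrap2, an accessory protein of melanocortin receptors, was at 0.827 ± 1.03 against 111 ± 18.2 CPM. Th, tyrosine hydroxylase, was at 2.37 ± 1.38 against 96.5 ± 30.0 CPM, and the low-affinity neurotrophin receptor Ngfr at 146 ± 30.6 against 619 ± 216.5 CPM. Neither comparison is independent of the other, since the cells of PEP1_Slc7a3.Sstr2 are in both.

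In all, 117 genes were called higher than in each of the other PEP1 types, of which 90 were also called higher than in the other neurons together, and 122 were called lower than in each. The 117 come from 355 (3.81%) and 265 (2.86%) genes called higher in the single comparisons. The 122 come from 327 (3.51%) and 441 (4.76%) called lower. Both comparisons use the same cells of PEP1_Slc7a3.Sstr2, so some overlap is built in. The 117 held the receptors Sstr2, Avpr1a, Npy1r, Ntsr2, Il17ra, Ptger4 and Ptgdr, the channel Kcnc4 (136 ± 32.8 CPM against 26.3 and 51.0), and Bcl11a (52.3 ± 7.36 CPM against 3.74 and 17.6). Prkg2 was at 27.6 ± 5.92 CPM against 5.96 and 4.49, first in PEP1_S100a11.Tagln2 and then in PEP1_Dcn, as for the values before it. The 122 held Nrp1 (14.1 ± 7.61 CPM against 102 and 142), Prkca (23.0 ± 6.44 against 217.5 and 112), the lysophosphatidic acid receptor Lpar1 (12.6 ± 7.17 against 99.0 and 55.7) and the serotonin-gated channel Htr3a (10.6 ± 8.16 against 58.0 and 225).

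UMIs per cell were compared by a test, since total UMIs were scaled out before the cells were clustered and so were not used directly. An indirect part of depth in the clusters was not tested. The median per cell was 59459, 47206, 43425, 40773 and 32384 in libraries 1 to 5. The mean of these medians was the second lowest of the 12 neuron types, above PEP3_Trpm8 with 31714 ± 3824. The type was 0.388 times NP_Mrgprd, with a log2 difference of -1.36 ± 0.20 (SD, n = 5), and was lower in 5 of 5 libraries (exact two-sided sign-flip test, p = 0.062, Benjamini-Hochberg adjusted p = 0.0764 over 11 types). With 5 libraries 0.062 is the smallest p this test allows. The same p was found for 8 of the other 10 types, in 7 of which the type was lower, from 0.411 times NP_Mrgpra3 to 0.762 times PEP1_Dcn, while it was 1.39 times PEP3_Trpm8. Against PEP1_S100a11.Tagln2 the ratio was 0.889 and the type was higher in 1 of 5 libraries (exact sign-flip p = 0.5, adjusted p = 0.5). Against NF2_Ntrk2.Necab2 the ratio was 0.482 and the type was higher in 1 of 5 libraries (exact sign-flip p = 0.125, adjusted p = 0.138). Fewer captured transcripts per cell and a smaller RNA content of the cell cannot be told apart here.

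**Figure D5:**
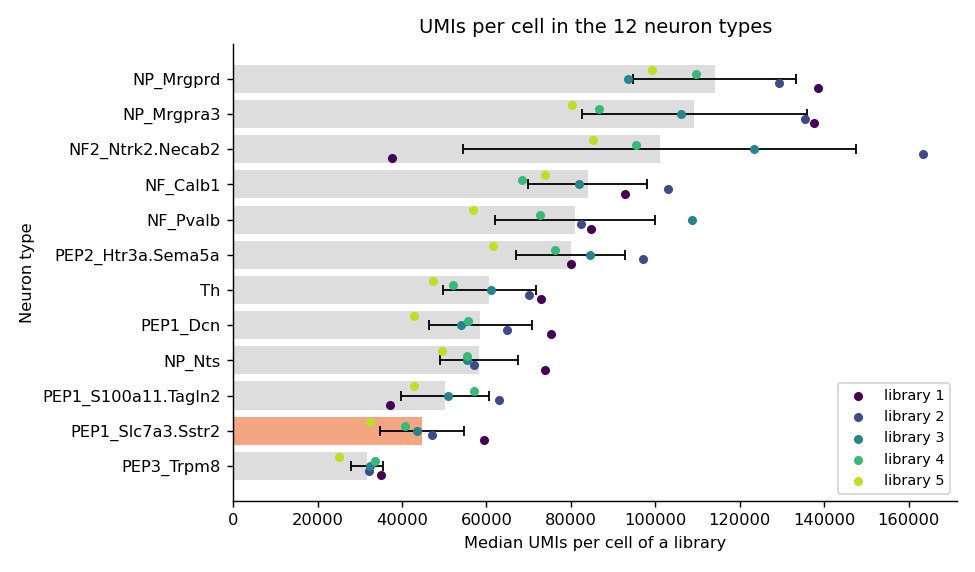
Median UMIs per cell of each library on the x axis in the 12 neuron types on the y axis, in order of their mean. Bars are the mean of the 5 libraries from 0, error bars the SD and points the libraries; PEP1_Slc7a3.Sstr2, in orange, lies above PEP3_Trpm8 alone, and its libraries range from 32384 to 59459.

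Most genes varied little between libraries within the type, with a median coefficient of variation of 13.3% over the 3099 genes at a mean of at least 50 CPM. The 5 with the largest values were Xist, Hspa1a, Nmt1, Rnr1 and Apoe. Xist, the RNA of the inactive X chromosome, was at 0, 0, 0, 553 and 607 CPM in libraries 1 to 5, and at 0 in the same 3 libraries of the other neurons. Hspa1a, an inducible heat shock protein, was at 46.3, 24.4, 20.1, 154 and 122 CPM and thus high in libraries 4 and 5, while the other neurons lay between 21.2 and 38.0 CPM. Nmt1 was at 90.4, 171, 233, 56.2 and 58.7 CPM and Rnr1, a mitochondrial ribosomal RNA, at 181, 281, 494, 122 and 140.5 CPM, and both were low in libraries 4 and 5. They were lowest in libraries 4 and 5 in the other neurons too, where Nmt1 was at 129, 251, 287, 77.6 and 94.0 CPM and Rnr1 at 87.5, 82.8, 140, 64.8 and 48.2 CPM. Libraries 4 and 5 were also the only ones with Xist, and a part of sex in the levels of Hspa1a, Nmt1 and Rnr1 was not tested. Apoe, a marker of satellite glia, was at 23.7, 91.4, 212, 106 and 113 CPM, low in library 1 and high in library 3, against 112, 240, 228, 120 and 101 CPM in the other neurons.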

How the data were processed

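For read alignment and UMI counting the authors used Cell Ranger v2.0.0, the mm10 build and UCSC gene models. They selected cells with 500 to 15000 genes and at most 10% mitochondrial UMIs, integrated the libraries and clustered them with Seurat v3.0.1. The deposited matrix holds raw UMI counts per gene and cell, which no normalization had changed, and a second file names each cell's type. By the 37 rows taken here as mitochondrial, 188 cells were above 10%. No cell was removed and no doublet caller was run here. In the annotation NF_Calb1 is spelled NF_Ca1b1. The 4 rows that name no mouse gene, LacZ among them, held 6.37e-05% of all UMIs and were left out.

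UMIs were summed per type and library and fitted with edgeR 4.0.16 in R 4.3.3 (filterByExpr, TMM, glmQLFit), without a library term. SE is the log2 fold change divided by the square root of F. Depth was 885440 to 4619805 UMIs per library in the type. Shares had exact Clopper-Pearson 95% intervals, and a count of 0 was bounded by 3 counts, over the summed libraries for a level and over the cells for a share. Code was tested on simulated data. Sums of both sides of a library come from the same animal. After removal of group means their correlation across genes was 0.062 to 0.357 for the other neurons, 0.11 to 0.401 for PEP1_S100a11.Tagln2 and 0.0739 to 0.368 for PEP1_Dcn.

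Alternatives were DESeq2 1.42.0, no filter on low counts, the replicate block, no minimum share of cells, cells thinned to 10000 or 5000 UMIs, types at equal weight, all other cells as the comparison, and leaving out each library. Batches were not given in the sources used here. Animal and batch cannot be told apart.

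The members and gene lists were chosen with earlier results of these data known. Named genes were the markers; the 20 higher and 10 lower genes with the largest fold changes and at least 10 CPM; up to 4 called members per list and direction, with members that define a group; up to 8 per direction against each other PEP1 type; and the 5 genes with the largest variation between libraries. Other names were chosen after their values were seen. Some genes that the rule names are not reported here.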

Additional observations from a re-analysis of the deposited data

Results flagged for a closer look

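Among 101 measures of the type with 5 libraries each, 6 had a library far from the other 4 by Dixon's criterion, and chance flags about 1 in 20. Scg2 was at 1816 CPM in library 3 against 854 to 1111 in the others. Npy1r was at 189 CPM in library 3 against 260 to 288. Ifngr2 was at 33.6 CPM in library 3 against 37.3 to 38.7. Ptprn2, a granule membrane protein, was at 92.7 CPM in library 2 against 38.8 to 51.9. Gfra3 was at 318 CPM in library 2 against 451 to 479. Fosb was at 203 CPM in library 2 against 118.5 to 141. In data that no comparison used, the rows of the matrix that name no mouse gene held 14 UMIs in the cells of the type, above the 3 counts that a count of 0 allows.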

How the results depend on the processing

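For the 161 named genes, no fold change of a called gene reversed its sign. Of 1746 values under an alternative, 1502 stayed within 1 SD between replicates and 244 moved by more. All 66 UMI differences kept their direction. Without the minimum share of cells, 891 genes were higher and 1358 lower than in the other neurons. With cells thinned to 10000 UMIs, 151 genes were higher and 127 lower than in PEP1_S100a11.Tagln2, and 109 higher and 153 lower than in PEP1_Dcn, with 4732 and 4659 genes left to compare. The share of cells with a UMI fell to 24.9% for Slc7a3 and 47.1% for Sstr2 at 10000 UMIs, and to 18.4% and 28.1% at 5000 UMIs. With the replicate block, 640 genes were higher and 825 lower than in the other neurons, 350 and 323 against PEP1_S100a11.Tagln2 and 266 and 438 against PEP1_Dcn, so pairing by library moved no count by over 1.5 times. With types at equal weight 438 genes were higher and 821 lower, of which 418 were among the 633 and 698 among the 830. Without a filter on low counts the median log2 fold change of all genes was -0.17. Library 1 rests on 16 cells, so its low levels are the least certain. Leaving out each library in turn gave 636 to 668 genes higher than in the other neurons.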
